A study of Mus musculus with 6 samples.

Results

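The genes described here were 37 cell cycle and proliferation genes, chosen by symbol from the 36144 gene symbols of the table of TPM (a share of the library per transcript length) deposited for inguinal white adipose tissue (iWAT). All 37 were found in that table and in the estimated counts, and 36 passed the filter on low counts. *Cdkn2a* did not. The RNA came from whole iWAT of 10-week-old female mice on a C57BL6/J background that were fed chow ad libitum. There were 3 Cebpa_fl/fl and 3 Cebpa_ASKO mice, with 1 library from each mouse. Mice of both genotypes carried the floxed *Cebpa* allele. The Cebpa_ASKO mice also carried AdipoQ-Cre, which acts in cells that express adiponectin, that is, in adipocytes late in their differentiation, so progenitors, immune cells and vessels of the depot keep the gene. Both inguinal depots of a mouse were extracted together after the lymph nodes had been removed, and poly-A RNA was sequenced. The comparison asks which cell cycle genes differ in level between fat with and without C/EBPα, the product of *Cebpa*, in its adipocytes.

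D-type cyclins with the kinases Cdk4 and Cdk6, and then E-type cyclins with Cdk2, phosphorylate the retinoblastoma protein, which releases E2F factors and starts the transcription of genes for DNA replication. CDK inhibitors of the INK4 and CIP/KIP families hold these kinases back. Mature adipocytes are post-mitotic, and C/EBPα is known as a transcription factor that drives adipocyte differentiation and can arrest proliferation, while dividing cells of a fat depot are mostly progenitors, immune cells and vascular cells.

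*Cebpa* was lower in every Cebpa_ASKO library. Its TMM-normalized level was 448, 465 and 498 CPM (counts scaled to a common library size) in Cebpa_fl/fl 1, 2 and 3, and 37.7, 45.8 and 37.2 CPM in Cebpa_ASKO 1, 2 and 3 (log2 fold change -3.55, SE 0.13, adjusted p = 0.000163, by the quasi-likelihood test of edgeR, adjusted after Benjamini and Hochberg, as for every adjusted p below unless another tool is named). Libraries held between 33141769 and 49477671 estimated counts.

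One control library stood apart from the others. The 24 lymphocyte and lymph node markers summed to 996 CPM in Cebpa_fl/fl 1, against 161 and 95.2 CPM in the other Cebpa_fl/fl libraries and 92.2 to 132 CPM in the Cebpa_ASKO libraries. Cebpa_fl/fl 1 was the highest of the 6 libraries for 23 of the 24, and each marker exceeded 3 counts in at least 1 of the other 5 libraries. Results are therefore given with and without Cebpa_fl/fl 1. The sum of the 7 germinal centre markers did not set this library apart in the same way. It was 84.7, 54.0 and 64.0 CPM in Cebpa_fl/fl 1, 2 and 3 and 76.2 to 89.0 CPM in the Cebpa_ASKO libraries. Cebpa_fl/fl 1 was the highest library for 5 of these 7 markers. Sums of other marker lists also differed. The 12 adipocyte markers summed to 22796 to 25887 CPM in Cebpa_fl/fl mice and 9186 to 11993 in Cebpa_ASKO mice, with 7 called lower by edgeR both with and without Cebpa_fl/fl 1, and the 10 skeletal muscle markers to 572 to 770 and 1908 to 5513 CPM, with 9 called higher, and 1 without Cebpa_fl/fl 1. The 10 endothelial markers summed to 434 to 517 and 316 to 423 CPM, with 2 called lower by edgeR, and 0 without Cebpa_fl/fl 1. In both edgeR fits 9 of the 10 had a log2 fold change below 0, and DESeq2 with 6 libraries called 4 lower. The 12 mammary epithelial markers summed to 954 to 2114 and 2532 to 2597 CPM. Of the 11 tested, 9 had a log2 fold change above 0, edgeR called 1 lower in both fits and none higher, DESeq2 called 4 higher and 1 lower, and *Wap* had 3 counts or fewer in every library. The 7 erythroid markers summed to 568 to 1051 and 362 to 496 CPM. Of the 5 tested, edgeR called none in either fit and DESeq2 called 4 lower. All 5 had an unadjusted p below 0.05 by edgeR, as had 3185 of all 16069 genes tested. The 10 keratinocyte and skin markers stayed low, at 35.8 to 78.3 and 40.5 to 54.5 CPM, with *Flg* and *Dsc1* at 3 counts or fewer in every library. The part of these cell types in the results below was not tested.

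Of the 36 genes tested, 4 were called at an adjusted p below 0.05. *Cdkn2c*, *Ccnd2* and *Ccnd3* fell and *Cdkn1a* rose in Cebpa_ASKO iWAT. In the whole table of 16069 tested genes, 3.84% fell and 1.39% rose by the same test. Without Cebpa_fl/fl 1 edgeR called only *Cdkn2c* and *Ccnd2*, both lower, where 2.72% of 16282 genes were called lower and 0.399% higher. DESeq2, the tool named in the study's methods, called 6 of the genes lower and 2 higher, against 6.7% and 3.98% of the 16964 genes to which it gave an adjusted p. The 4 genes it added were *Ccne1*, *Rb1* and *Mcm7*, lower, and *Ccnd1*, higher. The median log2 fold change of the 36 genes was -0.26, with 29 below 0, and that of all genes tested was 0.02. Without Cebpa_fl/fl 1 the median was -0.13, with 25 below 0, beside 0.03 for all genes. Levels of 8 of the 36 genes did not overlap between the genotypes, 6 lower and 2 higher, where 13.2% of all genes lay apart in the lower direction and 12.9% in the higher.

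**Figure D1:**
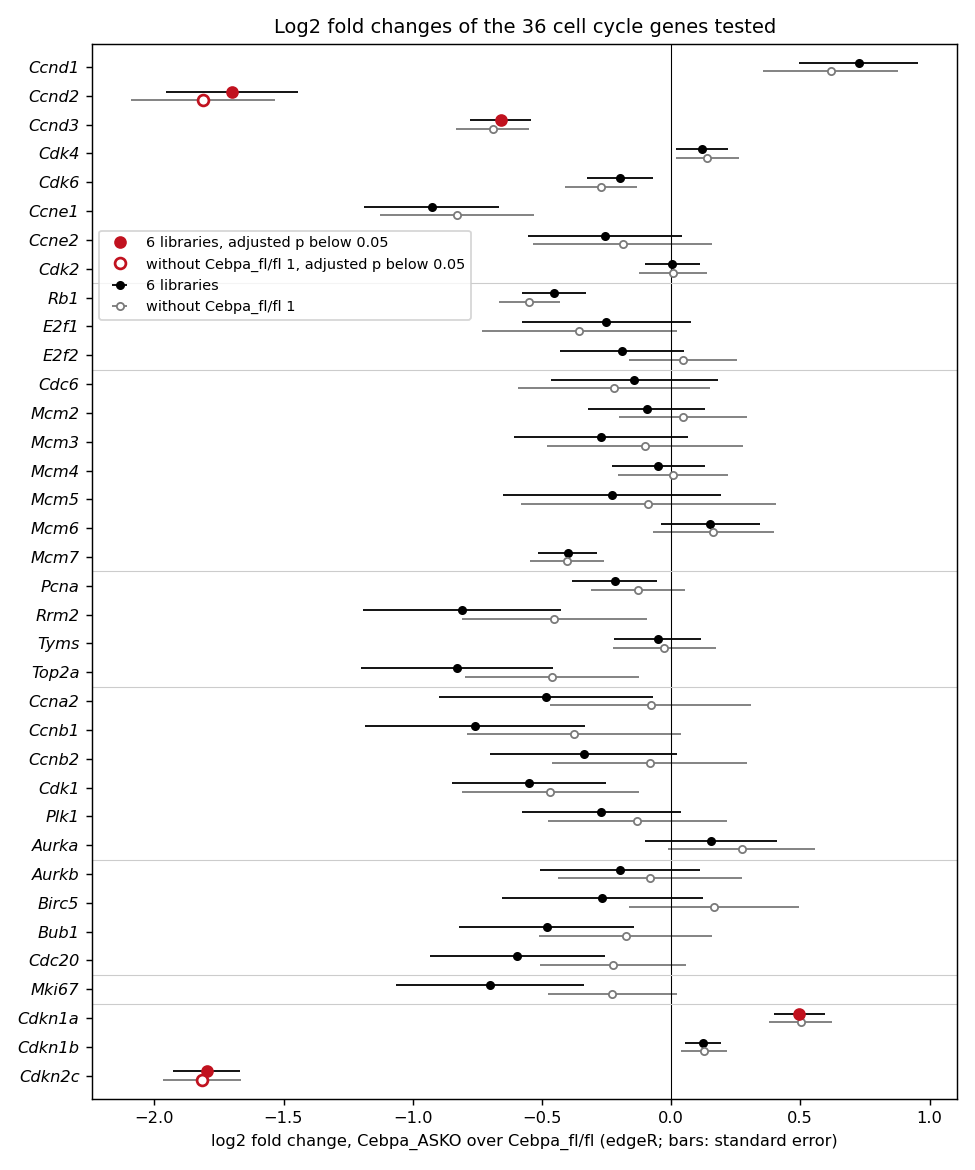
Log2 fold change (x axis) of Cebpa_ASKO over Cebpa_fl/fl for each of the 36 genes tested (y axis), with standard errors, from edgeR with 6 libraries (filled) and without Cebpa_fl/fl 1 (open); red points have an adjusted p below 0.05, and grey lines separate the functional groups. *Cdkn2c* and *Ccnd2* lie farthest to the left and are red in both fits, while most genes from DNA synthesis to mitosis move toward 0 when Cebpa_fl/fl 1 is left out.

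*Cdkn2c* encodes p18Ink4c, an inhibitor of Cdk4 and Cdk6 that is known to rise as preadipocytes differentiate. It lies on the minus strand at chr4:109660876-109667189 (GRCm38). Its level was 165, 160 and 181 CPM in Cebpa_fl/fl mice and 53.2, 40.5 and 51.9 in Cebpa_ASKO mice. All 3 Cebpa_ASKO libraries lay far below all 3 controls, at a mean of 28.8% of the control mean. The log2 fold change was -1.80 (SE 0.13, 95% interval -2.11 to -1.49, adjusted p = 0.000969), and -1.82 without Cebpa_fl/fl 1 (adjusted p = 0.00421). In whole tissue, fewer cells of a type and less RNA per cell cannot be told apart, and the adipocyte markers were lower in the same 3 libraries.

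Per unit of length, *Cdkn2c* was the most abundant of the 37 genes in control iWAT, at 196 ± 13.9 TPM (SD, n = 3), ahead of *Cdk4* at 148 ± 13.6 TPM. In Cebpa_ASKO iWAT it stood at 56.4 ± 8.86 TPM, and *Cdk4* at 162 ± 19.9 TPM. Of the mean *Cdk4* TPM over the 6 libraries, 42.5% was assigned to *Cdk4*-209, a 468-base transcript annotated as retaining an intron. Both annotated *Cdkn2c* transcripts were lower. *Cdkn2c*-201, of 1106 bases, carried 92.6% of the gene's TPM, with 172, 182 and 195 TPM in Cebpa_fl/fl and 51.6, 41.4 and 59.3 TPM in Cebpa_ASKO. *Cdkn2c*-202, of 2471 bases, starts farther upstream and had 10.5, 13.6 and 15.6 TPM in Cebpa_fl/fl and 5.15, 5.89 and 5.65 TPM in Cebpa_ASKO. Neither transcript overlapped between the genotypes.

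**Figure D2:**
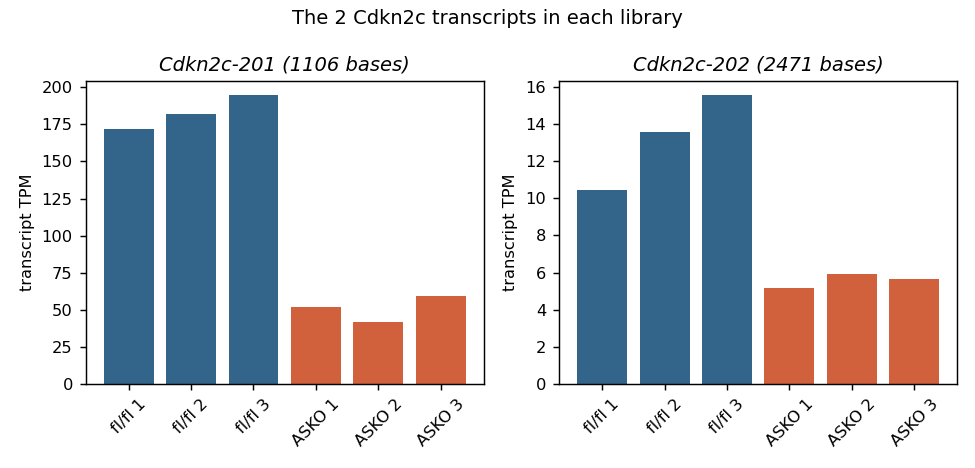
TPM (y axis) of the 2 annotated *Cdkn2c* transcripts in each of the 6 libraries (x axis; blue, Cebpa_fl/fl; orange, Cebpa_ASKO); each bar is 1 library. The 3 Cebpa_ASKO bars are below the 3 Cebpa_fl/fl bars for both transcripts, and the y axes differ in scale.

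The 250 bases upstream of the start of *Cdkn2c*-201 are printed because this transcript carried most of the fall. They were read from RefSeq (GRCm38.p6), 5′ to 3′ on the minus strand, at chr4:109665373-109665622, and their first bases lie in exon 1 of *Cdkn2c*-202. None of the 4 motifs searched below matched in them, so no letter is in capitals.
Cdkn2c: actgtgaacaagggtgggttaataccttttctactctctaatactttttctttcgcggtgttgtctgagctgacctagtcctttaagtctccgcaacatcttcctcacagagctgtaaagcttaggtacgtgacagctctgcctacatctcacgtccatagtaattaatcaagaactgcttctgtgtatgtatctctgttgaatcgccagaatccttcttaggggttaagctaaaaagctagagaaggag

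*Cdkn1a* encodes p21, a CIP/KIP inhibitor that p53 induces. Its level was 30.0, 29.2 and 30.0 CPM in Cebpa_fl/fl mice and 39.8, 38.7 and 47.3 in Cebpa_ASKO mice, so every Cebpa_ASKO library was above every control. The log2 fold change was 0.50 (SE 0.10, adjusted p = 0.038). With edgeR the call did not hold without Cebpa_fl/fl 1 (0.50, adjusted p = 0.114), and it was lost whichever of the 6 libraries was omitted, with adjusted p from 0.0671 to 0.114. DESeq2 called *Cdkn1a* with 6 libraries (0.48, adjusted p = 0.00398) and also without Cebpa_fl/fl 1. *Cdkn1b*, for p27, had 69.6, 71.0 and 66.8 CPM in Cebpa_fl/fl mice and 74.7, 77.0 and 74.3 in Cebpa_ASKO mice. Its levels were apart in CPM but overlapped in TPM, and the difference of 0.12 on the log2 scale (SE 0.07) was not called (adjusted p = 0.404).

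*Cdkn2a* encodes p16Ink4a and p19Arf from separate first exons. It had 25, 1 and 4 estimated counts in the Cebpa_fl/fl libraries and 5, 17 and 3 in the Cebpa_ASKO libraries, too few to be tested, and no difference was detectable at this depth. The transcript that opens with the p16Ink4a exon, *Cdkn2a*-201 (exon 1 at chr4:89281986-89282192), had 10.3 estimated counts in Cebpa_fl/fl 1, 1.71 in Cebpa_ASKO 1 and 0 in the other libraries. The rest came from *Cdkn2a*-202, which opens with the p19Arf exon (chr4:89294334-89294653).

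The 4 inhibitors together summed to 248 ± 15.1 TPM in Cebpa_fl/fl and 120 ± 14.0 TPM in Cebpa_ASKO (SD, n = 3). *Cdkn2c* was 79.2 ± 1.23% of this sum in Cebpa_fl/fl and 46.9 ± 3.86% in Cebpa_ASKO, *Cdkn1b* 12.2 ± 0.836% and 27.1 ± 2.73%, and *Cdkn1a* 8.47 ± 0.396% and 25.7 ± 1.99%. None of these 3 shares overlapped between the genotypes. They are parts of the same sum and not separate results, since a fall of *Cdkn2c* alone raises the shares of the others. In TPM, *Cdkn1b* was at 30.1 ± 2.08 in Cebpa_fl/fl and 32.4 ± 2.44 in Cebpa_ASKO.

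**Figure D3:**
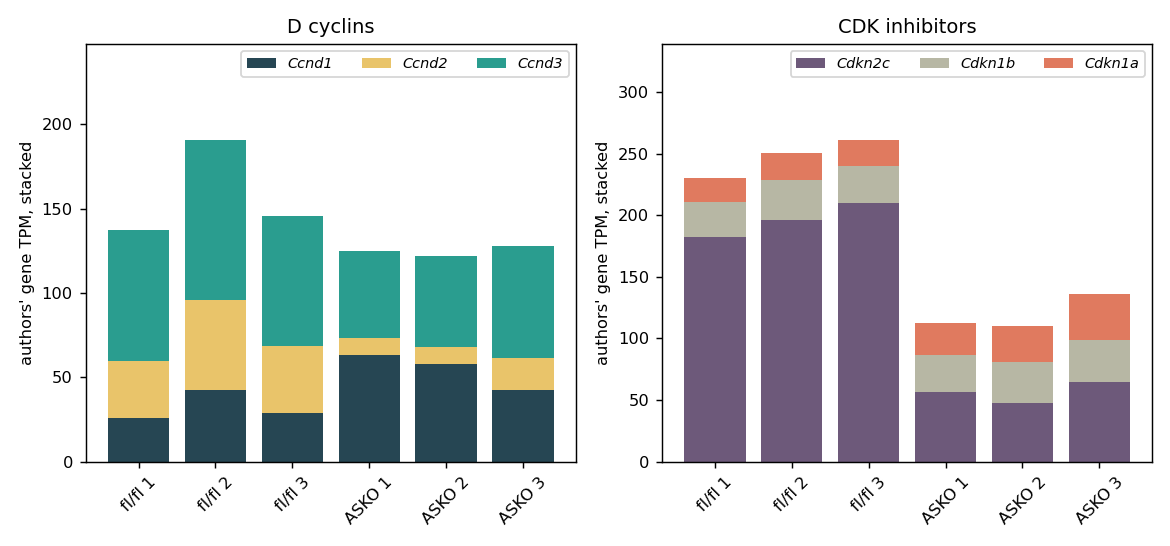
TPM (y axis, stacked) of the D-type cyclins (left) and of 3 CDK inhibitors (right) in each of the 6 libraries (x axis). The *Ccnd2* and *Ccnd3* segments are shorter in the 3 Cebpa_ASKO bars than in the 3 Cebpa_fl/fl bars on the left, and *Cdkn2c* takes most of each Cebpa_fl/fl bar on the right; *Cdkn2a*, at 0.356 TPM in Cebpa_fl/fl and 0.385 in Cebpa_ASKO, is not drawn.

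The D-type cyclins, which activate Cdk4 and Cdk6, had log2 fold changes of both signs, and those called were lower. *Ccnd2* was at 163, 233 and 183 CPM in Cebpa_fl/fl mice and 51.4, 44.8 and 81.8 in Cebpa_ASKO mice. Cebpa_ASKO 3, the highest of its genotype, was still well below the lowest control. The log2 fold change was -1.70 (SE 0.26, adjusted p = 0.0144) and -1.81 without Cebpa_fl/fl 1 (adjusted p = 0.0326). The call was lost without Cebpa_ASKO 1 (-1.61, adjusted p = 0.088) and without Cebpa_ASKO 2 (-1.55, adjusted p = 0.0597).

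*Ccnd3*, which encodes the D-type cyclin known to rise during adipocyte differentiation, was at 116, 134 and 111 CPM in Cebpa_fl/fl mice and 72.4, 70.3 and 86.1 in Cebpa_ASKO mice. The genotypes did not overlap. The log2 fold change was -0.66 (SE 0.12, adjusted p = 0.0291). With edgeR the call did not hold without Cebpa_fl/fl 1 (-0.69, adjusted p = 0.0746), Cebpa_fl/fl 3 (-0.71, adjusted p = 0.0554), Cebpa_ASKO 1 (-0.62, adjusted p = 0.137) or Cebpa_ASKO 2 (-0.62, adjusted p = 0.127). DESeq2 called *Ccnd3* with 6 libraries (-0.67, adjusted p = 9.56e-05) and also without Cebpa_fl/fl 1.

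*Ccnd1*, the D-type cyclin induced by growth factors, was at 80.4, 119 and 86.0 CPM in Cebpa_fl/fl mice and 197, 158 and 116 in Cebpa_ASKO mice. Cebpa_ASKO 3 lay just below Cebpa_fl/fl 2, so the genotypes overlapped in CPM. In TPM they were apart by little, with 42.6 in Cebpa_fl/fl 2 and 42.8 in Cebpa_ASKO 3. The log2 fold change of 0.73 (SE 0.23, 95% interval 0.18 to 1.28) was not called by edgeR (adjusted p = 0.146) and was called by DESeq2 (adjusted p = 0.0364), though not without Cebpa_fl/fl 1 (0.61, adjusted p = 0.224).

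Of the summed TPM of the 3 D-type cyclins, *Ccnd1* made up 19.0 to 22.4% in the Cebpa_fl/fl libraries and 33.4 to 50.5% in the Cebpa_ASKO libraries, and *Ccnd2* 24.6 to 27.9% and 8.32 to 14.7%. Neither share overlapped between the genotypes, and with 3 libraries against 3 an exact two-sided permutation test over the 20 arrangements can give no p below 0.1. As parts of the same sum, the shares depend on each other. *Ccnd3* was the largest share in every control, at 49.7 to 56.4%, and took 41.1 to 51.9% in Cebpa_ASKO, where *Ccnd1* exceeded it in Cebpa_ASKO 1 and 2. The sum was 158 ± 28.7 TPM in Cebpa_fl/fl and 125 ± 3.09 TPM in Cebpa_ASKO.

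The partners of the D-type cyclins were not called. *Cdk4* had a log2 fold change of 0.12 (95% interval -0.12 to 0.36) and *Cdk6* of -0.20 (-0.50 to 0.11), and *Cdk4* made up 98.5% of their summed TPM in Cebpa_fl/fl and 98.8% in Cebpa_ASKO. This *Cdk4* TPM includes the short transcript that retains an intron. *Cdk2*, the partner of the E-type and A-type cyclins, was at 24.8 ± 2.48 CPM in Cebpa_fl/fl mice and 24.9 ± 1.78 in Cebpa_ASKO mice. *Ccne1*, an E-type cyclin, was low, at 3.41, 2.88 and 2.73 CPM in Cebpa_fl/fl mice and 1.49, 1.20 and 2.04 in Cebpa_ASKO mice. Its genotypes were apart, but the log2 fold change of -0.93 (SE 0.26) was not called by edgeR (adjusted p = 0.109) and was called by DESeq2 (adjusted p = 0.0199), though not without Cebpa_fl/fl 1 (-0.84, adjusted p = 0.169). *Ccne2*, the other E-type cyclin, overlapped, with a log2 fold change of -0.25 (adjusted p = 0.719).

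*Rb1*, for the retinoblastoma protein, was at 58.0, 70.9 and 72.4 CPM in Cebpa_fl/fl mice and 49.2, 54.3 and 43.7 in Cebpa_ASKO mice. The genotypes were apart in CPM, with Cebpa_fl/fl 1 the lowest control, and overlapped in TPM. Its log2 fold change was -0.45 (SE 0.12, adjusted p = 0.101) and -0.55 without Cebpa_fl/fl 1 (adjusted p = 0.0834), and DESeq2 called it with and without that library (adjusted p = 0.0245 and 0.0067). *E2f1* and *E2f2*, factors that *Rb1*'s product holds back, had log2 fold changes of -0.25 and -0.19, with overlapping genotypes. Several of the genes overlap protein-coding genes on the opposite strand. *Cdk4* shares 641 bases with *Tspan31*, *Ccne2* overlaps *Ints8*, and *Rb1* overlaps *Rcbtb2* and *Lpar6*. *Ccnd3* shares 361 bases with *Bysl*, *Ccnd1* 1771 bases with *LTO1* and *Cdk2* 837 bases with *Pmel*. Among the genes described below, *Mcm7* shares 421 bases with *Ap4m1* and 64 with *Cops6*. *Ccna2* shares 863 bases with *Exosc9*, and *Cdc20* shares 53 with *Elovl1*. Reads from such partners cannot be told apart without strand, and whether counting used strand is not given in the sources used here.

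**Figure D4:**
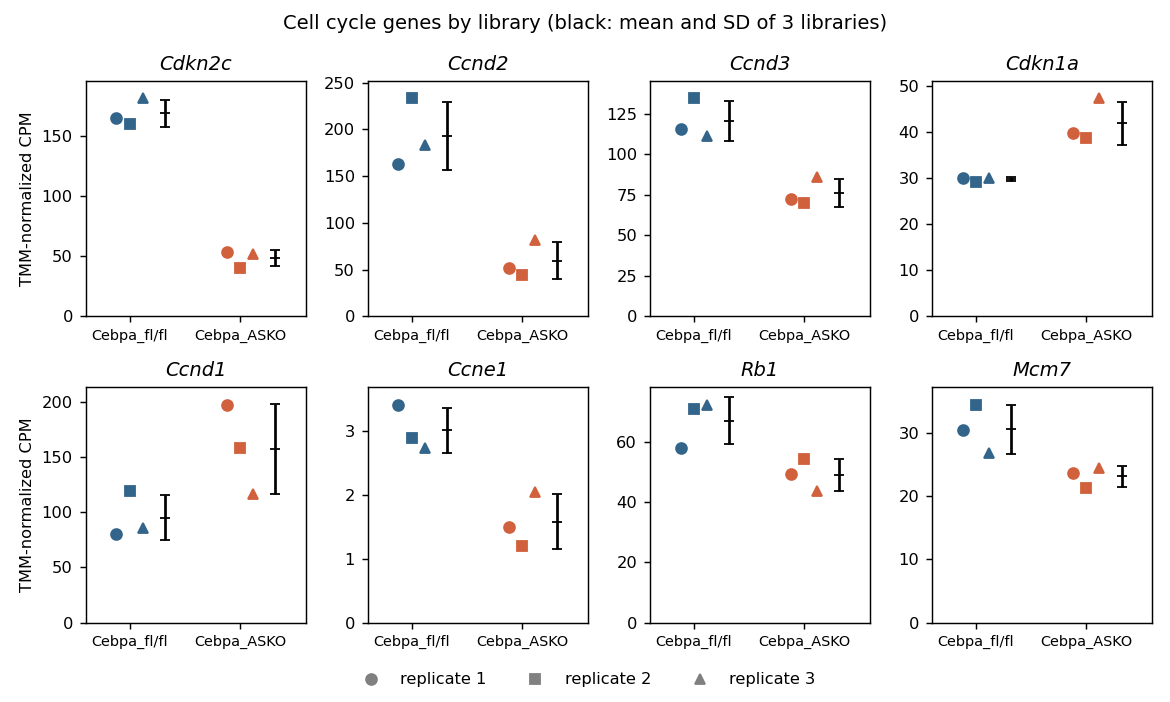
TMM-normalized CPM (y axis) of 8 genes in each of the 3 Cebpa_fl/fl and 3 Cebpa_ASKO libraries (x axis; the marker shape is the replicate number, which only names a library); black bars are the mean and SD. The genotypes are apart for each gene except *Ccnd1*, and the gap is widest for *Cdkn2c* and *Ccnd2*.

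The 22 genes that act from the licensing of replication to cell division were not called in either fit by edgeR. Their lowest adjusted p was 0.115 with 6 libraries and 0.254 with 5, both for *Mcm7*. With 6 libraries 20 of the 22 had a log2 fold change below 0, with a median of -0.27, and without Cebpa_fl/fl 1 17 of 22, with a median of -0.11. Their summed level was 304, 285 and 187 CPM in Cebpa_fl/fl 1, 2 and 3 and 200, 195 and 257 CPM in Cebpa_ASKO 1, 2 and 3, so all 3 Cebpa_ASKO libraries lay inside the range of the controls.

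In CPM, Cebpa_fl/fl 3 was the lowest control for all 22 genes, where it was the lowest control for 31.9% of all genes tested. In TPM it was not the lowest control for *Aurka* or *Mcm7*. The counts that follow are also in CPM. Cebpa_ASKO 3 was the highest Cebpa_ASKO library for 19 of the 22, against 33.2% of all genes. For 12 of the 22 all 3 Cebpa_ASKO libraries lay inside the range of the controls, or 54.5%, against 19.2% of all genes. Cebpa_fl/fl 1 was the highest of the 6 libraries for 13 of the 22, or 59.1%, and for 15 of the 36 genes tested, where it was the highest for 14.4% of all genes.

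Marker levels of other cell types differed among the same libraries. The 12 macrophage markers summed to 1658, 2995 and 1128 CPM in Cebpa_fl/fl 1, 2 and 3 and to 1806, 1860 and 2483 CPM in Cebpa_ASKO 1, 2 and 3, and the 10 fibroblast and progenitor markers to 7524, 13069 and 7329 CPM and to 9229, 8830 and 11012 CPM. By CPM, Cebpa_fl/fl 3 was the lowest control and Cebpa_ASKO 3 the highest Cebpa_ASKO library in both lists, as for the genes of replication and mitosis. No gene of either list was called. By TPM, Cebpa_fl/fl 1 was the lowest control for the fibroblast and progenitor markers, at 3021 against 3053 in Cebpa_fl/fl 3. For the endothelial and mammary epithelial markers Cebpa_fl/fl 3 was instead the highest control, at 517 and 2114 CPM. Cebpa_ASKO 3 was the highest Cebpa_ASKO library for the endothelial markers and the lowest for the mammary ones. The part of these cells in the levels of the cell cycle genes was not tested.

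**Figure D5:**
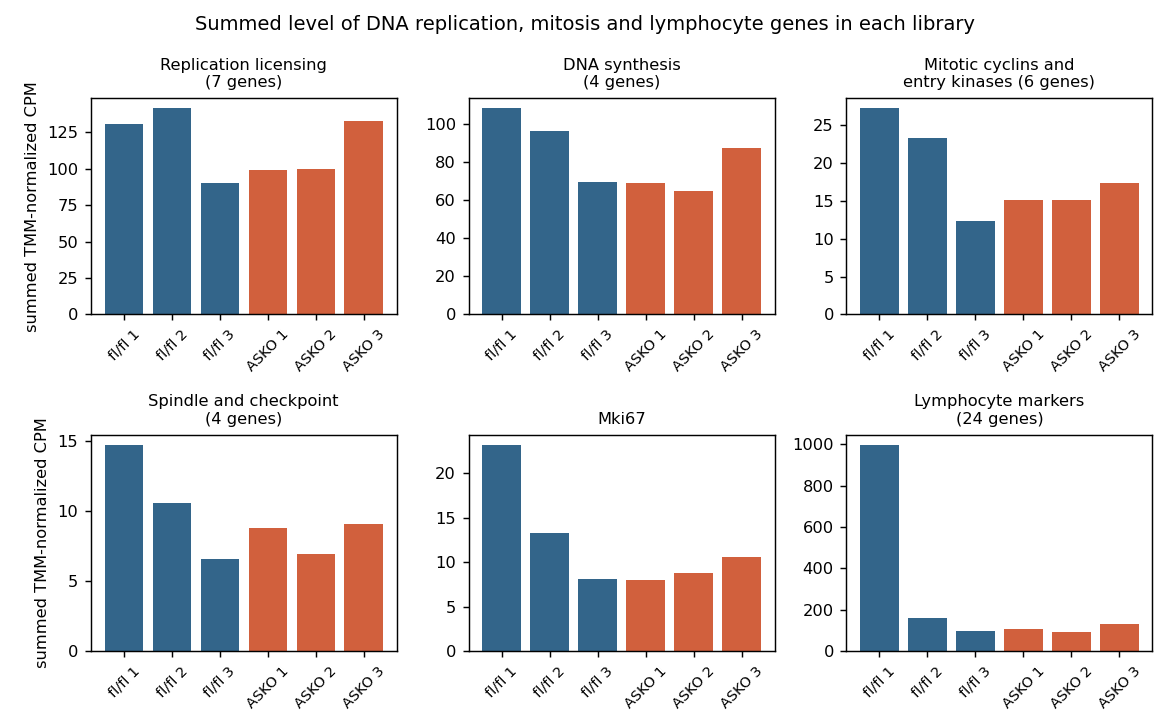
Summed TMM-normalized CPM (y axis) of the genes of replication licensing, DNA synthesis, mitotic entry and the spindle and checkpoint, of *Mki67*, and of 24 lymphocyte markers, in each of the 6 libraries (x axis; blue, Cebpa_fl/fl; orange, Cebpa_ASKO). Cebpa_fl/fl 3 is the lowest control in every panel, and the lymphocyte markers reach 996 CPM in Cebpa_fl/fl 1 and at most 161 in the other libraries.

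Of the 7 licensing genes, *Cdc6* loads the MCM helicase at origins and *Mcm2* to *Mcm7* encode its subunits. Their log2 fold changes ran from -0.40 for *Mcm7* to 0.15 for *Mcm6*, with a median of -0.14. *Mcm7* was at 30.5, 34.5 and 26.8 CPM in Cebpa_fl/fl mice and 23.7, 21.3 and 24.4 in Cebpa_ASKO mice. Its genotypes were apart, alone among the 22, in CPM but not in TPM, with a log2 fold change of -0.40 (SE 0.12, adjusted p = 0.115). DESeq2 called it at the threshold (adjusted p = 0.0497), and not without Cebpa_fl/fl 1 (adjusted p = 0.215). The other MCM subunits overlapped. *Mcm3*, for example, was at 18.5, 17.6 and 9.28 CPM in Cebpa_fl/fl mice and 10.2, 9.62 and 17.8 in Cebpa_ASKO mice, with Cebpa_ASKO 3 beside the 2 higher controls and the others near Cebpa_fl/fl 3.

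Of the genes for DNA synthesis, *Pcna*, the sliding clamp of the replicative polymerases, was the most abundant, at 70.2, 65.3 and 52.3 CPM in Cebpa_fl/fl mice and 50.3, 46.3 and 64.8 in Cebpa_ASKO mice. The genotypes overlapped, with a log2 fold change of -0.22 (95% interval -0.61 to 0.17). *Top2a*, a topoisomerase of replicating and dividing cells, was at 21.2, 15.5 and 7.20 CPM in Cebpa_fl/fl mice and 7.67, 7.38 and 9.67 in Cebpa_ASKO mice. All 3 Cebpa_ASKO libraries lay between Cebpa_fl/fl 3 and Cebpa_fl/fl 2. Its log2 fold change was -0.83 (SE 0.37, adjusted p = 0.28), -0.46 without Cebpa_fl/fl 1 (adjusted p = 0.606), and -1.16 without Cebpa_fl/fl 3, where it was called (adjusted p = 0.0468). *Rrm2*, a ribonucleotide reductase subunit, had -0.81 (adjusted p = 0.309), and *Tyms*, thymidylate synthase, -0.05 (adjusted p = 0.915).

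*Mki67*, the usual marker of cycling cells, was at 23.2, 13.2 and 8.12 CPM in Cebpa_fl/fl mice and 8.02, 8.81 and 10.5 in Cebpa_ASKO mice. The controls differed widely, and 2 of the 3 Cebpa_ASKO libraries lay within their range. The log2 fold change was -0.70 (SE 0.36, 95% interval -1.57 to 0.17, adjusted p = 0.354), and -0.23 without Cebpa_fl/fl 1 (SE 0.25, adjusted p = 0.761). In TPM *Mki67* stood at 1.75 ± 0.817 in Cebpa_fl/fl and 1.15 ± 0.244 in Cebpa_ASKO.

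The mitotic cyclins and entry kinases were low. *Ccna2*, *Ccnb1* and *Ccnb2*, cyclins that activate *Cdk1*'s product, had log2 fold changes of -0.48, -0.76 and -0.34, which were -0.08, -0.38 and -0.08 without Cebpa_fl/fl 1. *Cdk1*, the mitotic kinase, was at 5.42 ± 1.89 CPM in Cebpa_fl/fl mice and 3.70 ± 0.491 in Cebpa_ASKO mice (log2 fold change -0.55, adjusted p = 0.376). *Plk1*, a kinase of mitotic entry, had -0.27 and *Aurka*, a centrosome kinase, 0.15, and the genotypes overlapped for all 6 of these genes.

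Among the genes for the spindle, the checkpoint and division, *Aurkb* and *Birc5*, of the chromosomal passenger complex, had log2 fold changes of -0.20 and -0.27. *Bub1*, a spindle checkpoint kinase, had -0.48 and *Cdc20*, an activator of the anaphase-promoting complex, -0.59. Without Cebpa_fl/fl 1 the 4 values lay between -0.23 and 0.17, and the lowest adjusted p of the 4 with 6 libraries was 0.399.

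Other genes of the pathway, from lists of 157 genes that were all tested, gave 2 called higher and 1 called lower with 6 libraries, beside 1.39% higher and 3.84% lower of all genes, and 0 higher and 1 lower without Cebpa_fl/fl 1. Over all genes tested, 3185 of 16069 had an unadjusted p below 0.05 by edgeR. None of 37 other replication genes was called by edgeR (5 had an unadjusted p below 0.05, and DESeq2 called 1 higher and 3 lower). None of 56 other mitotic genes was called (4 had an unadjusted p below 0.05, and DESeq2 called 2 lower), and 51 of them had a log2 fold change below 0, as had 7405 of all 16069 genes, with a median of -0.37. Without Cebpa_fl/fl 1, 43 were below 0 with a median of -0.18, and 42 of the 56 were highest in that library, where 14.4% of all genes were. None of 15 other pocket protein, E2F and DREAM genes was called (2 with an unadjusted p below 0.05, and DESeq2 called 1 lower), and none of 17 other inhibitors and brakes (5 with an unadjusted p below 0.05, and DESeq2 called 1 higher).

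The 3 called genes were growth and stress regulators. *Myc*, a growth-promoting transcription factor, was at 25.8, 26.2 and 23.1 CPM in Cebpa_fl/fl mice and 33.9, 35.9 and 32.8 in Cebpa_ASKO mice (log2 fold change 0.45, adjusted p = 0.0344). *Jun*, an AP-1 subunit, was at 52.2, 65.4 and 56.2 CPM in Cebpa_fl/fl mice and 88.3, 79.9 and 89.0 in Cebpa_ASKO mice (0.57, adjusted p = 0.0341). *Sesn2*, a stress-induced sestrin and the 1 called of 22 genes in the list of p53 and its targets, was at 22.4, 17.3 and 16.8 CPM in Cebpa_fl/fl mice and 11.6, 9.11 and 10.3 in Cebpa_ASKO mice (-0.86, adjusted p = 0.0295). For each of the 3 the genotypes were apart. Without Cebpa_fl/fl 1 none of the 3 was called (adjusted p = 0.0934, 0.105 and 0.0717), and of the 12 growth factor driven genes *Wwtr1*, a co-activator of the Hippo pathway, was called lower (-0.62, adjusted p = 0.047).

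Upstream sequences of 250 bases ahead of a RefSeq start (GRCm38.p6) were at hand for 30 of the 37 genes, in 36 windows, and were searched on both strands. The E2F motifs TTTCCCGC, TTTGGCGC, TTTCGCGC and TTTGCCGC matched in 7 of the 36 windows (19.4%) and in 1.86% of all 32851 windows, and 4 of the 7 windows of licensing genes had a match. The letters CCAAT matched in 22 windows (61.1%), among them the 5 windows of mitotic cyclins and entry kinases, and in 33.8% of all windows. The cell cycle homology letters TTTGAA matched in 7 windows (19.4%) and in 16.0% of all windows, and TTGCNNAA, the core letters that C/EBP factors bind, in 2 windows (5.56%), those of *Mcm3* and *Pcna*, and in 9.56% of all windows. A match is a description of letters and not a site.

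A pair of windows is printed as examples of these letters, for a licensing gene and a gene of DNA synthesis. For 25 of the 36 windows the bases that follow were found in a GENCODE M21 transcript of the gene. That of *Top2a* was among them and that of *Mcm6* was not, so the latter may not lie directly ahead of an annotated transcript. The window of *Mcm6* (chr1:128359706-128359955, minus strand) held E2F letters and CCAAT, and that of *Top2a* (chr11:99024190-99024439, minus strand) held TTTGAA and CCAAT. Capitals mark matches on either strand, 5′ to 3′, and matches that overlap form 1 run.
Mcm6: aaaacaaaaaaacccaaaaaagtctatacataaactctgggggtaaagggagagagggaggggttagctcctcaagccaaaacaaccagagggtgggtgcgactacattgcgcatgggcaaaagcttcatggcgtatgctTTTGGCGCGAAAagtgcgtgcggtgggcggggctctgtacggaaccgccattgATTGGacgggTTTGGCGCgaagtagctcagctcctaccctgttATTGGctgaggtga
Top2a: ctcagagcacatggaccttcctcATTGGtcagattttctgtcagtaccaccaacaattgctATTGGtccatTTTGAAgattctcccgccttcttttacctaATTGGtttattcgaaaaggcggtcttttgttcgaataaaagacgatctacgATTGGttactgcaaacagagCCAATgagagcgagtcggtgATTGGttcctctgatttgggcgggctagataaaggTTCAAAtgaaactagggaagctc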

How the data were processed

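Bulk RNA-seq of iWAT from 3 Cebpa_fl/fl and 3 Cebpa_ASKO mice was analysed. The libraries were made by poly-A selection, and all carry the same batch label. The authors deposited estimated counts per transcript, not normalized, and TPM per transcript and per gene symbol. The submitters' processing notes name kallisto 0.44.0 and the builds GRCm38.p6 and GRCh38.p12, without a role for either build. The transcript annotation was not given in the sources used here. Of 118489 transcripts, 116816 (98.6%) matched GENCODE M21 by identifier, holding 99.5% to 99.6% of each library's counts. Their estimated counts were summed by symbol (35999 of 36144 symbols) and rounded. Reads that fit several transcripts are divided by kallisto, which makes a single transcript less certain than its gene.

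Genotype and replicate came from the labels. The test was edgeR 4.0.16 (R 4.3.3), quasi-likelihood with TMM scaling (factors from 0.956 to 1.06), filterByExpr and Benjamini-Hochberg adjustment over all genes tested, with calls at an adjusted p below 0.05. CPM are TMM-normalized. Alternatives were DESeq2 1.42.0, limma 3.58.1 on log2(TPM + 1) and log2(TPM + 0.1) for genes with at least 1 TPM in 3 libraries and without that filter, scaling by DESeq2's size factors or by total counts, no filter, at least 10 counts in every library, the replicate number as a block, a lymphocyte marker covariate, and each library left out. The procedure was tested on simulated data. Values were given per library for called genes, for genes apart in CPM and TPM, and for the D-type cyclins, the CDK inhibitors, *Rb1*, *Mki67*, *Top2a* and *Pcna*, while *Mcm3* and *Mcm7* were added after their values were seen. The genes and lists were chosen with earlier results of these data known. Figures used Python 3.11.15 and matplotlib 3.10.9.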

Additional observations from a re-analysis of the deposited data

How the results depend on the processing

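*Cdkn2c* and *Cebpa* kept their direction and their call in all 19 settings, the reported one included, with *Cdkn2c* between -1.87 and -1.70 on the log2 scale. *Ccnd2* was called in 15 of the 19, *Ccnd3* in 8 and *Cdkn1a* in 6, each always in its reported direction. The number of cell cycle genes called, 4 as reported (3 lower, 1 higher), was 8 with DESeq2 (6 lower, 2 higher), 2 with scaling by total counts, with limma on either pseudocount, with the lymphocyte marker covariate and with limma without Cebpa_fl/fl 1, and 1 with limma without a filter. No gene was called higher in the settings that gave 2 or 1. The limma fit without a filter called 1 lower. With the replicate block 1 cell cycle gene was called (1 lower, 0 higher) and 370 genes in all, against 840 without the block. The same-numbered libraries did not pair, with correlations of 0.0956, -0.00613 and -0.259 between their deviations from the group means. Leaving out 1 library at a time gave 1 to 3 of these genes called, all lower, beside 311 to 922 called of all genes. Between 9 and 20 of the cell cycle genes then did not overlap, where 8 were reported, since fewer libraries leave smaller ranges. The share of all genes apart was not computed for these sets, so the 9 to 20 cannot be set against it. Without Cebpa_fl/fl 1, DESeq2 called 5 where edgeR called 2, beside 1314 and 508 of all genes. The 5 were *Cdkn2c*, *Ccnd2*, *Ccnd3* and *Rb1*, lower, and *Cdkn1a*, higher. *Ccnd1*, *Ccne1* and *Mcm7* were each called in 1 of the 19, by DESeq2 with 6 libraries, and *Rb1* in 2. The median log2 fold change of the genes stayed below 0 throughout, between -0.46 and -0.13 with 1 library left out.

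The direction changed in some settings for 15 of the genes, none of which was called in the reported fit, and for all of these the cause was not tested. Log2 fold changes are given for each.
*Cdk2* was reported at 0.0044, and it was -0.010 with DESeq2, -0.0083 with DESeq2's size factors, -0.0019 with no filter, -0.010 with at least 10 counts in every library, -0.020 with the lymphocyte marker covariate and -0.0032 with DESeq2 without Cebpa_fl/fl 1, and it ran from -0.080 to 0.075 with 1 library left out. *E2f1* was reported at -0.25, and it ran from -0.54 to 0.10 with 1 library left out. *E2f2* was reported at -0.19, and it was 0.0087 with limma with a pseudocount of 1, 0.022 with limma with 0.1, 0.0087 with limma without a filter, 0.052 with the lymphocyte marker covariate, 0.036 with DESeq2 without Cebpa_fl/fl 1 and 0.072 with limma without Cebpa_fl/fl 1, and it ran from -0.37 to 0.047 with 1 library left out. *Cdc6* was reported at -0.14, and it was 0.035 with limma with a pseudocount of 1, 0.047 with limma with 0.1, 0.035 with limma without a filter and 0.060 with limma without Cebpa_fl/fl 1, and it ran from -0.39 to 0.16 with 1 library left out. *Mcm2* was reported at -0.10, and it was 0.13 with the lymphocyte marker covariate, 0.040 with DESeq2 without Cebpa_fl/fl 1 and 0.051 with limma without Cebpa_fl/fl 1, and it ran from -0.32 to 0.046 with 1 library left out. *Mcm3* was reported at -0.27, and it was 0.041 with the lymphocyte marker covariate and 0.016 with limma without Cebpa_fl/fl 1. *Mcm4* was reported at -0.05, and it was 0.010 with limma with a pseudocount of 1, 0.011 with limma with 0.1, 0.010 with limma without a filter, 0.076 with the lymphocyte marker covariate, 0.00077 with DESeq2 without Cebpa_fl/fl 1 and 0.030 with limma without Cebpa_fl/fl 1, and it ran from -0.23 to 0.029 with 1 library left out. *Mcm5* was reported at -0.23, and it was 0.10 with the lymphocyte marker covariate. *Mcm6* was reported at 0.15, and it ran from -0.020 to 0.32 with 1 library left out. *Tyms* was reported at -0.052, and it was 0.033 with limma with a pseudocount of 1, 0.040 with limma with 0.1, 0.033 with limma without a filter, 0.024 with the lymphocyte marker covariate and 0.067 with limma without Cebpa_fl/fl 1, and it ran from -0.19 to 0.055 with 1 library left out. *Ccna2* was reported at -0.48, and it was 0.11 with the lymphocyte marker covariate. *Ccnb2* was reported at -0.34, and it was 0.067 with the lymphocyte marker covariate. *Aurka* was reported at 0.15, and it ran from -0.0056 to 0.32 with 1 library left out. *Aurkb* was reported at -0.20, and it was 0.019 with limma with a pseudocount of 1, 0.034 with limma with 0.1, 0.019 with limma without a filter, 0.037 with the lymphocyte marker covariate and 0.049 with limma without Cebpa_fl/fl 1. *Birc5* was reported at -0.27, and it was 0.29 with the lymphocyte marker covariate, 0.16 with DESeq2 without Cebpa_fl/fl 1 and 0.068 with limma without Cebpa_fl/fl 1, and it ran from -0.54 to 0.17 with 1 library left out.

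With 3 mice of each genotype, differences as small as that of *Cdkn1b* were not detectable. Most genes of mitosis were low, between 1 and 10 CPM, so that their values rested on few estimated counts, at the lowest 28 in a library for a tested gene. Levels in whole tissue do not separate cell types, and the lymphocyte, muscle and adipocyte markers differed between libraries or genotypes. kallisto's estimated counts carry an assignment error that the fits do not include.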
